A study of Mus musculus with 2 samples.

Results

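The 10 genes described here belong to the Wnt pathway and were taken by symbol from the 33696 features of 2 single-cell libraries of mouse skin wounds. Wnt5a and Wnt2 encode Wnt ligands. Wif1, Sfrp1, Sfrp2, Sfrp4, Dkk2 and Dkk3 encode secreted proteins of the families that hold Wnt inhibitors, with Dkk2 acting at the co-receptors and Dkk3 being the family member least tied to Wnt signalling. Lef1 encodes a transcription factor that pairs with beta-catenin, and Axin2 encodes a feedback inhibitor inside the cell that is itself a target of the pathway, so those genes are neither ligands nor secreted inhibitors. All 10 were present in the feature tables and all were detected in both libraries.

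Both libraries came from wild type male C57BL/6 mice whose back skin had received a full-thickness wound of 10 mm and whose wounds were taken at day 6. One library held pooled cells of mice aged 2 months, called young, and the other pooled cells of mice aged 24 months, called aged. Cells of several mice were pooled in each library and 3 cell barcodes occurred in both. Each age thus had 1 library and no replicate, and no test was made. The intervals below are exact 95% intervals that cover counting error only, and differences between animals and between libraries are not in them.

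Wnt ligands are secreted lipid-modified proteins that bind Frizzled receptors with Lrp5 or Lrp6 or with the Ror and Ryk receptors. In the canonical branch, binding keeps beta-catenin from being destroyed, and beta-catenin then acts with Tcf and Lef factors on targets such as Axin2. Sfrp proteins and Wif1 bind the ligands outside the cell, and Dkk proteins such as Dkk2 bind the co-receptors. In skin, Wnt signals between epithelium and dermis are known from hair follicle formation, and the dermal papilla at the base of the follicle is known for Wnt modulators.

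RefSeq windows of 250 bases upstream of the annotated start, on GRCm38.p6, were found for 9 starts of 6 of the genes. They were searched on both strands for CTTTGA and CTTTGT, letters of the core site of Tcf and Lef factors. Of 32851 such windows for all genes, 27.6% held at least 1 match. Among the 9 windows 2 did, the window of Dkk2 with 1 match and the window of 1 of the 4 Lef1 starts with 3 matches. The windows of 4 genes are shown, those of the 2 genes with a match and those of Wif1 and the target Axin2, to which the cell groups below return. Capitals mark the matches, and a match in these letters is a description of the sequence and not a binding site.
Wif1, chr10:121033754-121034003, plus strand, no match: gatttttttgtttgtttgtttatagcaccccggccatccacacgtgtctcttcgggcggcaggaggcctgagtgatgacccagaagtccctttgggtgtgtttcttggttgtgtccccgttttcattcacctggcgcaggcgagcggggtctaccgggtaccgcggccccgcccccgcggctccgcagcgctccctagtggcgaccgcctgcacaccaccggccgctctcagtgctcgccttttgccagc
Lef1, chr3:131156044-131156293, plus strand, 3 matches: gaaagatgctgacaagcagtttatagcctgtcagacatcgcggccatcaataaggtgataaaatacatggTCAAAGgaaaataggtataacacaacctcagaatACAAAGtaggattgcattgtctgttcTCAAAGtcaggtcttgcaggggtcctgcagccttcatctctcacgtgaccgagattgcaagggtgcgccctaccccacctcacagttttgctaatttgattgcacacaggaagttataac
Dkk2, chr3:132085042-132085291, plus strand, 1 match: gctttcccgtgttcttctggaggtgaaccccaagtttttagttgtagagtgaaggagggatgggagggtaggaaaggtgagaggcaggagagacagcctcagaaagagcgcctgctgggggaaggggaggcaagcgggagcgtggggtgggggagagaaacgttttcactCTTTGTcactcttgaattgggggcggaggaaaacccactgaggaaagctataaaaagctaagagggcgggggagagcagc
Axin2, chr11:108920099-108920348, plus strand, no match: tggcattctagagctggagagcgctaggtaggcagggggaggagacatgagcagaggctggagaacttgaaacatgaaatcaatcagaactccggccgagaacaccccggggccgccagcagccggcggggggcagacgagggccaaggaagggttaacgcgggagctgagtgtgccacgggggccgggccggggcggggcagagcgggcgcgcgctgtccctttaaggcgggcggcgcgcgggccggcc

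The filter left 4661 young and 4210 aged cells with medians of 15566 and 13776.5 UMIs, a UMI being a counted RNA molecule. Cells were put into classes by the mean scaled level of lists of marker genes, with cells passing several class gates left out. Fibroblasts numbered 1527 young and 1427 aged, with median depths of 42098 and 49794 UMIs. Macrophages and monocytes numbered 797 and 1126, neutrophils 1335 and 908, T and NK cells 324 and 42, endothelial cells 46 and 44, and dendritic cells 19 and 42. In gated fibroblasts all 7 fibroblast markers (collagens, Dcn, Lum and the Pdgf receptors) were detected in both libraries, at a summed level of 67795 CPM (UMIs scaled to a total of 1000000 in the class) in the young and 58452 in the aged library. The neutrophil list summed to 68.5 and 19.6 CPM in the same cells. Few fibroblasts lay near their gate, 36 young and 28 aged cells within 25% of the threshold.

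Within fibroblasts 4 subset gates were set on genes other than the 10, chosen with earlier results of these data known. They were Acta2, Tagln, Crabp1 and Prss35 (108 young and 121 aged cells), Coch, Igfbp2 and Grem1 (72 and 8 cells), Cxcl14, C7 and Cilp (286 and 234 cells), and Pi16, Dpp4, Sema3c and Anxa3 (378 and 525 cells). A subset is a range of a score, not a cell type, and a cell could pass more than 1 gate. The Acta2/Crabp1 and Coch/Igfbp2 gates shared 36 young and 3 aged cells, and 61 young and 59 aged cells passed both the Cxcl14/C7/Cilp and the Pi16/Dpp4 gates. Within 25% of the Pi16/Dpp4 threshold there were 318 young and 316 aged cells, and near the Coch/Igfbp2 threshold 30 and 4. No subset gate was passed by 801 young and 608 aged fibroblasts.

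A list of hair follicle dermal papilla and sheath genes (Corin, Crabp1, Alx4, Hhip, Rspo4) picked out a further small set. In the young library 5 cells and in the aged library 10 cells had UMIs of at least 4 of these 5 genes. They are called Corin/Hhip cells and were kept apart from the fibroblasts, a choice made after seeing the data. They had median depths of 73878 and 95902.5 UMIs. Their fibroblast marker level was 1290 CPM in the young and 3253 in the aged library, far below that of gated fibroblasts. Without the rule 3 of the 5 young cells and 7 of the 10 aged cells passed no class gate, 1 young cell passed the macrophage gate, and 1 young and 3 aged cells passed the fibroblast gate. All 15 fell into 1 cluster of 194 cells (145 young and 49 aged) when clustering was done without the 10 genes. By the gates of its cells that cluster was classed as fibroblast. The 5 genes that chose the Corin/Hhip cells were not left out of the clustering. In the young library 3 further cells had 3 of the 5 genes, and in the aged library none did. The T and NK list summed to 211 CPM in the young and 1.99 in the aged Corin/Hhip cells, and the macrophage list to 268 and 203 CPM. No doublet caller was run, and the part of these markers in the results was not tested.

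In gated fibroblasts 1 of the 10 genes was higher by 1.5-fold or more in the aged library (Wnt2) and 4 were lower by as much (Wif1, Sfrp2, Dkk3, Axin2). Of the 18028 features with at least 20 UMIs in fibroblasts, 11.3% were higher and 8.5% lower past the same fold. The median log2 ratio of aged over young was -0.42 over the 10 genes and 0.08 over all those features.

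**Figure D1:**
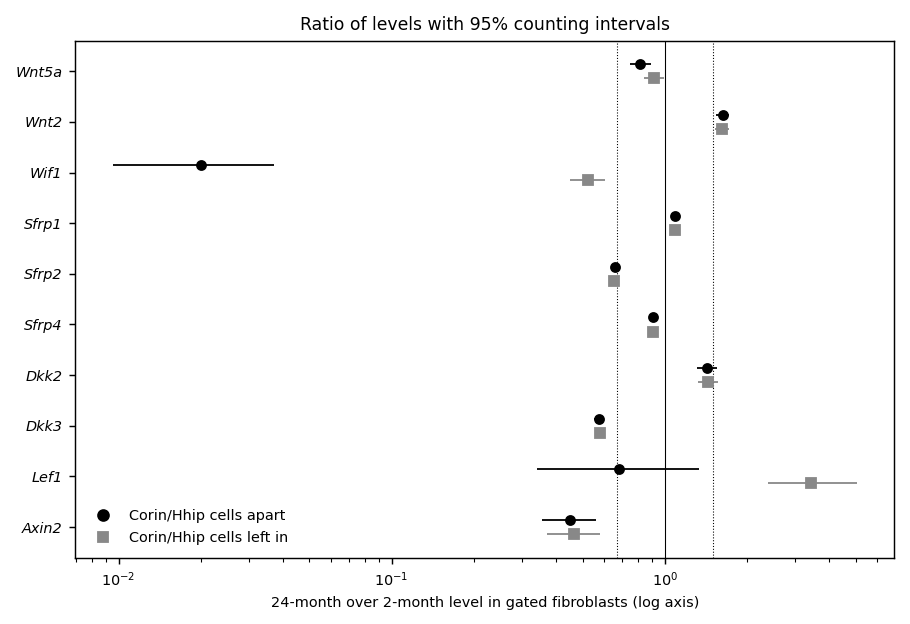
Ratio of the aged (24-month) to the young (2-month) level of each of the 10 genes in gated fibroblasts, on a log axis, with 95% counting intervals as bars and dotted lines at 1.5-fold either way. Black points leave the Corin/Hhip cells out and grey squares leave them in their class. Wif1 lies at 0.020 without them and 0.523 with them, and Lef1 moves from 0.680 to 3.44, while the other genes move little.

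Within the subset ranges the counts of the genes past 1.5-fold, among those with at least 20 UMIs, were these. In the Acta2/Crabp1 range 1 of 9 was higher and 4 lower, with 11.3% of 12424 features higher and 11.4% lower. In the Coch/Igfbp2 range 2 of 7 were higher and 3 lower, against 16.1% and 23.7% of 9390. The Cxcl14/C7/Cilp range had 2 of 9 higher and 3 lower, against 11.2% and 8.08% of 13306, and the Pi16/Dpp4 range 3 of 8 higher and 1 lower, against 14.2% and 7.53% of 14600. Fibroblasts without a subset gate had 1 of 10 higher and 5 lower, against 11.7% and 10.4% of 16181. Among the genes with ratios on both sides of 1 in these ranges were Wnt5a, Sfrp1, Sfrp2, Sfrp4 and Dkk2, while Dkk3 was below 1 in each.

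The subsets of 1 library also differed from one another. Against the other fibroblasts of the young library, 5 of the 10 genes were higher and 4 lower past 1.5-fold in the Acta2/Crabp1 range, with 22.9% and 19.3% of 16050 features. The Coch/Igfbp2 range had 6 higher and 4 lower (27.4% and 20.9% of features), the Cxcl14/C7/Cilp range 3 and 4 (10.3% and 15.7%) and the Pi16/Dpp4 range 1 and 4 (9% and 18.8%). In the aged library, where 8 of the 10 genes had enough UMIs, the counts were 3 and 5 (16.8% and 18.5% of 16356 features), 2 and 4 (24% and 38.8%), 2 and 3 (13.1% and 18.1%), and 3 and 2 (12.4% and 17.4%). In the young library Wif1 and Axin2 were highest in the Coch/Igfbp2 range, at 18.2 and 14.3 times the level of other fibroblasts, and Sfrp2 was lowest there, at 0.100 times. Axin2 kept this place in the aged library, at 25.4 times from 14 UMIs. Since the gate genes were chosen with earlier results known, the high Wif1 level in this range is a description and not an independent result.

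Wnt2, a ligand, was the member that was higher in aged fibroblasts past 1.5-fold. It was at 29.0 CPM in the young library (1992 UMIs in 592 cells) and at 47.3 in the aged library (3527 UMIs in 802 cells). The ratio of aged over young was 1.63, with an interval from 1.54 to 1.72. After each cell was thinned to 2000 UMIs, 4.76% of young fibroblasts (interval 3.74% to 5.97%) and 8.8% of aged fibroblasts (7.37% to 10.4%) held a Wnt2 UMI. The unthinned shares were 38.8% and 56.2%, against 0.0749% and 0.22% of neutrophils, whose median depths were 5622 and 4325 UMIs. When at least 2 UMIs were asked of a thinned cell, the ratio of the shares turned to 0.978.

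Among the subset gates, Wnt2 was highest in the Pi16/Dpp4 range in both libraries, at 43.2 CPM in the young and 68.6 in the aged. Dpp4 and Pi16 mark fibroblasts of the fascia and of vessel sheaths. Against all other fibroblasts of the same library the level there was 1.75 times as high in the young (interval 1.59 to 1.92) and 1.88 times in the aged (1.76 to 2.01). The Acta2/Crabp1 range, whose gate includes the contractile genes Acta2 and Tagln, had levels of 15.4 and 30.5 CPM (ratio 1.99, 1.55 to 2.57). In the Cxcl14/C7/Cilp range the levels of 20.4 and 22.0 differed by less than the counting error. Wnt2 was not found in any Corin/Hhip cell of either library, where 3 UMIs would have given 5.96 and 2.98 CPM.

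Wnt5a, the ligand best known for signalling through Ror receptors, was carried by other cells. Over all fibroblasts it was at 15.8 CPM in the young and 12.8 in the aged library, which gave 0.812 as the ratio (0.744 to 0.887). This hid opposite differences between subsets. In the Acta2/Crabp1 range the level was 79.0 in the young library and 31.4 in the aged one (ratio 0.398, 0.340 to 0.465). In the Cxcl14/C7/Cilp range it was 8.27 and 14.6 (ratio 1.76, 1.36 to 2.29), and in the Pi16/Dpp4 range 3.05 and 6.95 (ratio 2.28, 1.65 to 3.20). The Acta2/Crabp1 range exceeded the other fibroblasts 7.75-fold in the young library and 2.98-fold in the aged. The Coch/Igfbp2 range had 64.7 and 72.3 CPM, the aged value resting on 29 UMIs in 8 cells.

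Among the cell classes, Corin/Hhip cells held the highest Wnt5a level in both libraries, though in the young library it was below that of the Acta2/Crabp1 range of fibroblasts. The young library had 34 UMIs in them, from 5 to 8 in a cell, or 67.6 CPM. The aged library had 288 UMIs, from 9 to 52 in a cell, or 286 CPM. Depth differed between these cells, and relative to depth the cells of the libraries overlapped. One young cell had 6 Wnt5a UMIs of 38526, and 1 aged cell had 12 of 106624. These few cells held 2.95% of all Wnt5a UMIs of the young library and 22.6% of those of the aged library.

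**Figure D2:**
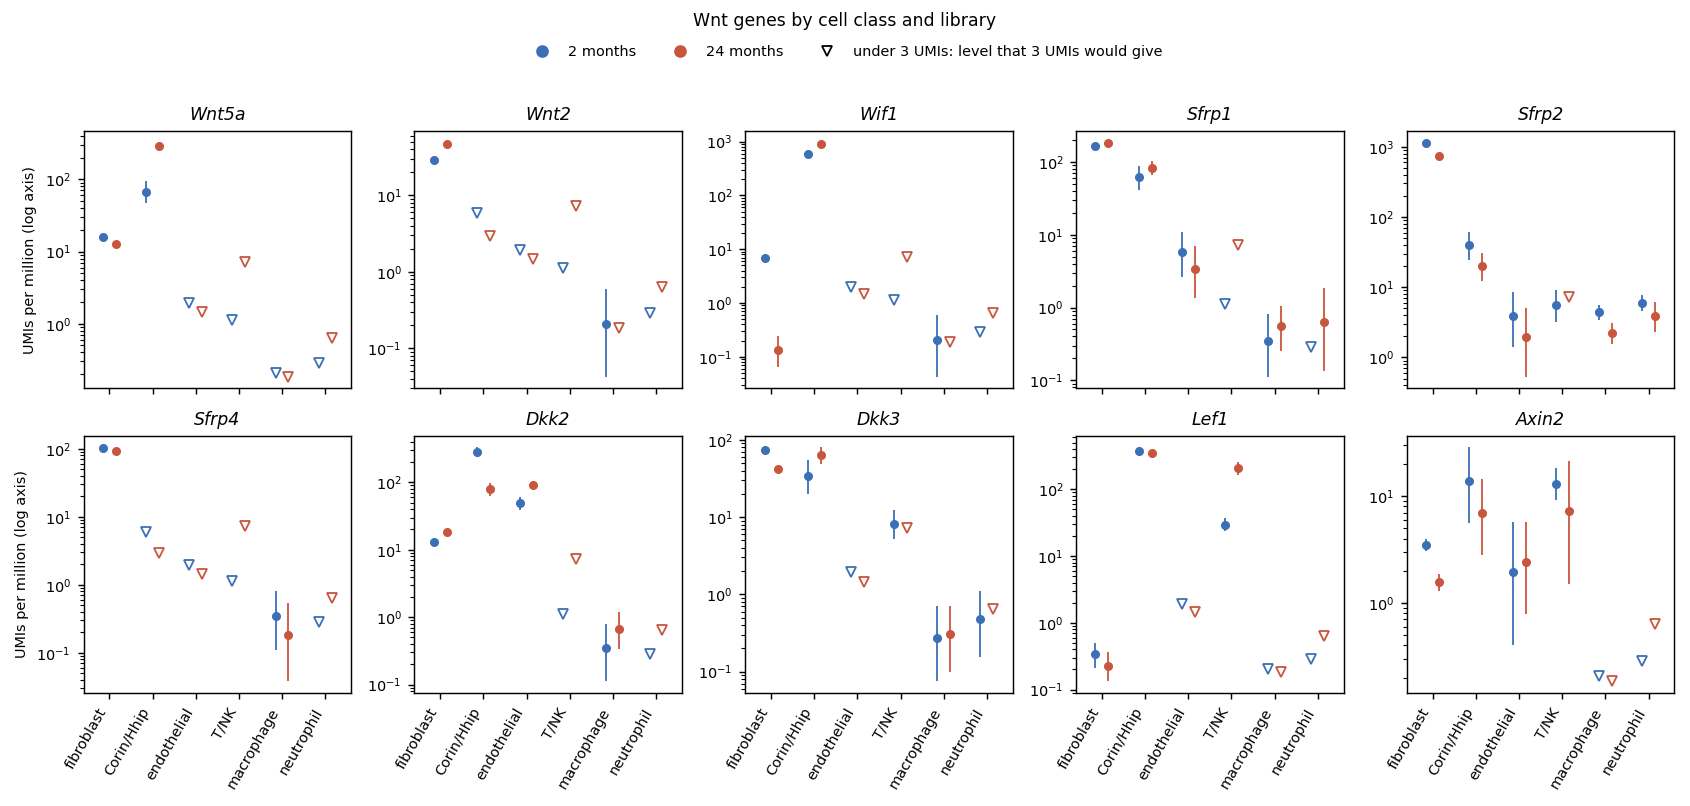
Level of each gene (CPM of the class, log axis) in 6 cell classes of the young (2 months, blue) and aged (24 months, red) libraries, with 95% counting intervals as bars. Open triangles stand for classes with under 3 UMIs and are drawn at the level 3 UMIs would give. Sfrp1, Sfrp2 and Sfrp4 were highest in fibroblasts, Wif1, Wnt5a and Lef1 in Corin/Hhip cells, and Dkk2 in the aged library was highest in endothelial cells.

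Sfrp2, a secreted Frizzled-related protein that is abundant in dermal fibroblasts, was lower in aged fibroblasts. Its level was 1135 CPM in the young (77850 UMIs) and 746 in the aged library (55661 UMIs), which gave 0.658 as the ratio (0.651 to 0.665). The share of fibroblasts with a UMI hardly differed, 87.8% and 87.6%, while after thinning it was 61.8% (59.3% to 64.3%) and 55.4% (52.8% to 58.1%). Where detected, the median cell held 35 UMIs in the young and 25 in the aged library. In neutrophils, which should lack the gene, Sfrp2 was at 6.03 and 3.84 CPM, and 4.64% and 1.98% of neutrophils held a UMI.

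The lower Sfrp2 level was not shared by all subsets. Fibroblasts that passed no subset gate had 1404 and 759 CPM, a ratio of 0.541 (0.533 to 0.549), and the Pi16/Dpp4 range had 1183 and 911, a ratio of 0.770 (0.755 to 0.785). In the Acta2/Crabp1 range the aged level was the higher, 487 against 356, a ratio of 1.37 (1.30 to 1.44), which was 0.986 when gates were set 25% lower. The Coch/Igfbp2 range had 118 in the young and 539 in the 8 aged cells, a ratio of 4.56 (3.82 to 5.43), which became 0.0515 when its gate was set 25% higher. With each subset given the same weight, the ratio over fibroblasts turned to 1.19 for Sfrp2. The same weighting turned Wnt5a to 1.11, Sfrp4 to 1.68 and Dkk2 to 0.553, while Dkk3, Axin2 and Wnt2 kept their direction. The Sfrp2 ratio was 0.675 with clusters in place of gates and 0.676 as a mean over cells, and 0.670 with cells passing more than 1 class gate kept, all short of 1.5-fold.

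Sfrp1 and Sfrp4, the other Frizzled-related members, differed little over all fibroblasts. Sfrp1 was at 167 CPM in the young and 182 in the aged library, which gave 1.09 as the ratio (1.06 to 1.12). Sfrp4 was at 103 and 93.8, a ratio of 0.908 (0.879 to 0.939). Both were highest in the Cxcl14/C7/Cilp range, whose gate genes encode a chemokine, a complement component and a matrix protein. Sfrp1 there was at 340 in the young and 561 in the aged library, which gave 1.65 as the ratio (1.58 to 1.72), and exceeded the other fibroblasts 2.59-fold and 4.65-fold. Sfrp4 was at 176 and 226, a ratio of 1.28 (1.21 to 1.36). In the Acta2/Crabp1 range Sfrp4 was at 8.22 and 7.54 CPM, 0.0735 and 0.0722 times its level in the other fibroblasts of each library.

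Dkk3, a Dickkopf-family secreted protein, was lower in aged fibroblasts of each subset range. Over all fibroblasts it was at 73.4 CPM in the young (5035 UMIs) and 42.2 in the aged library (3146 UMIs), which gave 0.575 as the ratio (0.550 to 0.601). The ratio was 0.765 in the Acta2/Crabp1, 0.418 in the Coch/Igfbp2, 0.505 in the Cxcl14/C7/Cilp and 0.491 in the Pi16/Dpp4 range, and 0.618 in fibroblasts without a subset gate. The thinned share of fibroblasts with a UMI was 14.3% (12.5% to 16.2%) in the young and 7.73% (6.38% to 9.25%) in the aged library. Corin/Hhip cells went the other way, with 17 UMIs in the young and 63 in the aged library (33.8 and 62.7 CPM, ratio 1.85, 1.07 to 3.38).

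**Figure D3:**
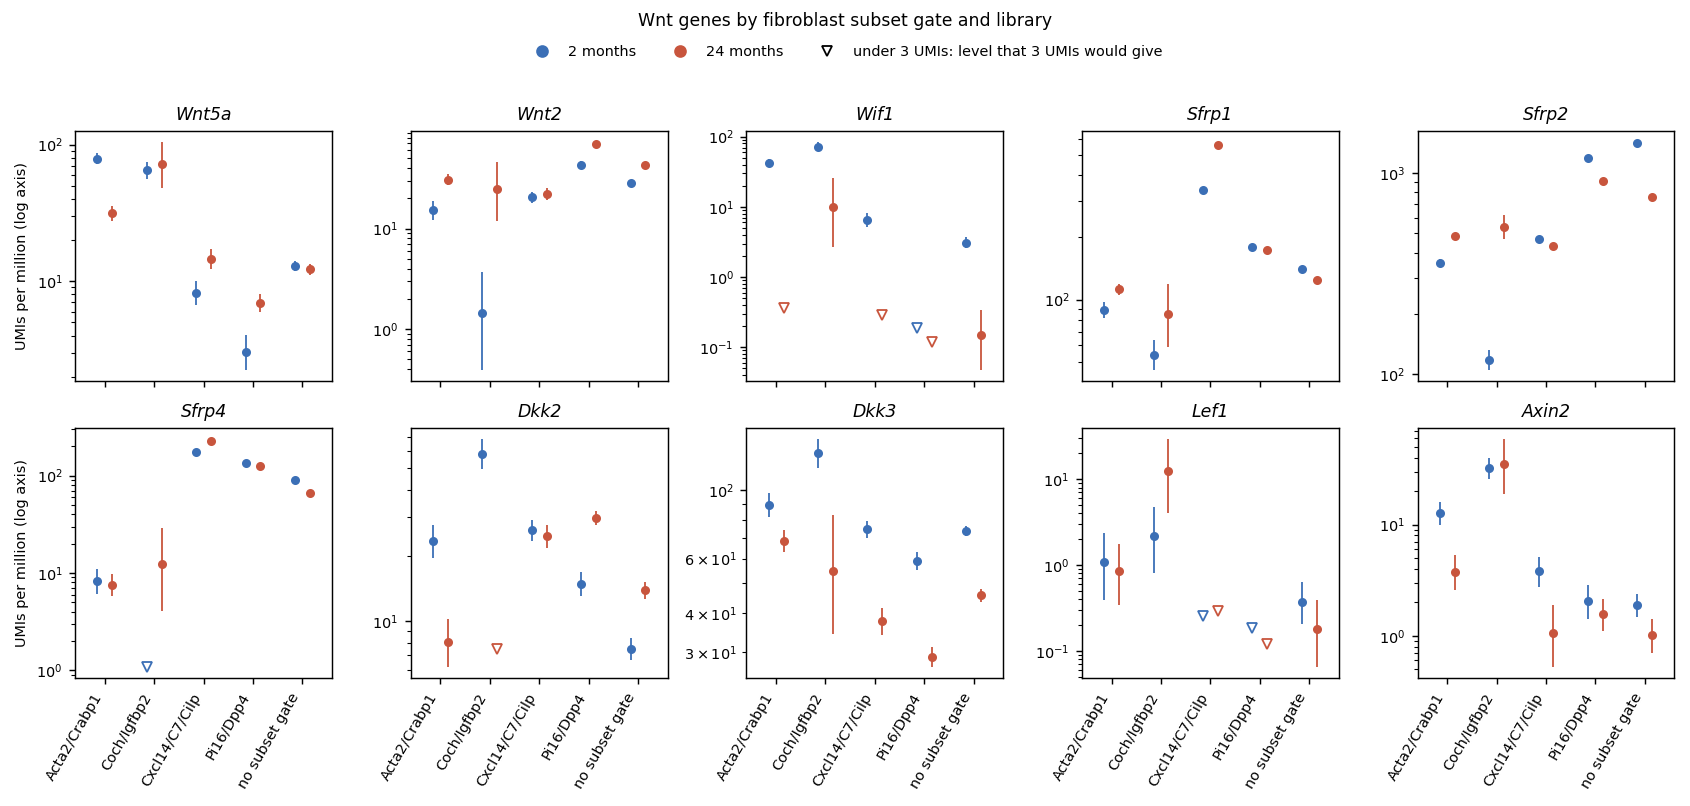
Level of each gene (CPM of the subset, log axis) in the 4 fibroblast subset ranges and in fibroblasts that passed none, for the young (2 months, blue) and aged (24 months, red) libraries, with 95% counting intervals as bars. Open triangles stand for under 3 UMIs. Dkk3 was lower in the aged library in every range shown, Wnt5a was lower in the Acta2/Crabp1 range and higher in the Cxcl14/C7/Cilp and Pi16/Dpp4 ranges, and the aged Coch/Igfbp2 values rest on 8 cells.

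Dkk2, which binds the Wnt co-receptors, was at 13.02 CPM in young (893 UMIs) and 18.6 in aged fibroblasts (1388 UMIs), a ratio of 1.43 (1.31 to 1.56). Few cells carried it, 9.43% of young and 14.5% of aged fibroblasts, and the 10 richest held 38.2% and 40.2% of its fibroblast UMIs. In the Pi16/Dpp4 range the level was 14.9 and 29.8, a ratio of 2.00 (1.73 to 2.33), and 3.68 without the 10 richest cells of each library. In the Acta2/Crabp1 range it was 23.2 and 8.03, a ratio of 0.346 (0.253 to 0.469), and 0.0263 without them. A Dkk2 UMI was held by 37 young and 96 aged cells of the Pi16/Dpp4 range and by 24 and 11 of the Acta2/Crabp1 range. Leaving out 10 cells thus took unlike parts of the carriers in the 2 libraries. The values without the richest cells therefore do not show a larger difference. The Coch/Igfbp2 range had 58.2 CPM in the young library (160 UMIs) and 1 UMI in the aged, a ratio of 0.0429 (0.00108 to 0.242).

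Dkk2 was also the member of the list with a clear level in endothelial cells. The young library had 76 UMIs in 10 of 46 endothelial cells, or 49.3 CPM. The aged library had 188 UMIs in 11 of 44 cells, or 91.4 CPM, a ratio of 1.85 (1.41 to 2.45). In that class 14.5% of features were higher and 8.26% lower past 1.5-fold. Corin/Hhip cells had 142 and 80 Dkk2 UMIs (282 and 79.6 CPM), a ratio of 0.282 (0.212 to 0.373), and 2 young cells held 53 and 69 of the 142.

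Wif1, a secreted protein that binds Wnt ligands, was split between fibroblasts and Corin/Hhip cells. Summed over all cells the young library held 768 Wif1 UMIs (6.90 CPM) and the aged library 913 (8.49 CPM), 1.23 times the young level. In the young library 461 of these UMIs, or 60.03%, lay in fibroblasts and 292, or 38.0% (34.6% to 41.6%), in the 5 Corin/Hhip cells. In the aged library 10 UMIs lay in fibroblasts and 899, or 98.5% (97.4% to 99.2%), in the 10 Corin/Hhip cells. The fibroblast level was 6.72 CPM in the young and 0.134 in the aged library, which gave 0.020 as the ratio (0.0095 to 0.037). With the Corin/Hhip cells left in their class the ratio was 0.523 (0.451 to 0.605), since 3 of the aged ones passed the fibroblast gate.

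The young Wif1 fibroblasts were few. Only 30 of 1527 held a UMI, with a median of 12 and a highest value of 53, and the 10 richest held 66.8% of the UMIs. In the aged library 6 of 1427 held a UMI, 4 at the most. Of the young UMIs 289 of 461, or 62.7%, lay in the 144 cells that passed the Acta2/Crabp1 or the Coch/Igfbp2 gate, 147 of them in the 36 cells that passed both. The Coch/Igfbp2 range had 72.3 CPM in the young and 9.98 in the aged library (199 and 4 UMIs), which gave 0.138 as the ratio (0.0372 to 0.359). The Acta2/Crabp1 range had 42.3 and 0.122 (237 and 1 UMIs), a ratio of 0.00287 (7.25e-05 to 0.0162). The summed level of Coch, Igfbp2 and Grem1 over all fibroblasts was 118 CPM in the young and 10.5 in the aged library, while that of the Acta2/Crabp1 list was 328 and 318. Cells that passed the Acta2/Crabp1 gate and not the Coch/Igfbp2 gate held 90 Wif1 UMIs in 72 young cells (21.97 CPM) and 1 in 118 aged cells (0.124 CPM). What part the smaller Coch/Igfbp2 range has in the Wif1 ratio was not tested.

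Beside other fibroblasts of the young library, the 30 Wif1 cells were low in Sfrp2, at 32.8 against 1153 CPM. They were higher in Igfbp2 (582 against 47.9), Acta2 (489 against 81.7) and Dkk2 (108 against 11.4). Corin had a UMI in 5 of them and Hhip in 4, at 20.4 and 14.2 CPM against 0.282 and 0.0445 in the other fibroblasts. Lef1 was found in 1 of them. These cells were chosen by their Wif1 UMIs, and the values are a description.

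Lef1 split the same cells differently. All 5 young and all 10 aged Corin/Hhip cells held both Wif1 and Lef1, whereas 1 young fibroblast and no aged fibroblast did. Both genes were also found in a cell without a class gate in each library. It held 2 Wif1 and 3 Lef1 UMIs in the young library, and 3 and 4 in the aged. Lef1 UMIs ranged from 15 to 48 in the young Corin/Hhip cells and from 18 to 53 in the aged ones, 370 and 351 CPM, a ratio of 0.95 (0.793 to 1.14). Wif1 UMIs ranged from 7 to 102 in the young cells, with a median of 49, and from 9 to 173 in the aged, with a median of 84.5. The level of Wif1 in them was 581 and 894 CPM, a ratio of 1.54 (1.35 to 1.76), and the cells of the libraries overlapped for both genes. These cells held 58.9% of young and 72.5% of aged Lef1 UMIs. Gated fibroblasts held 23 and 17 Lef1 UMIs, a ratio of 0.680 with an interval from 0.341 to 1.33 that includes no difference.

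**Figure D4:**
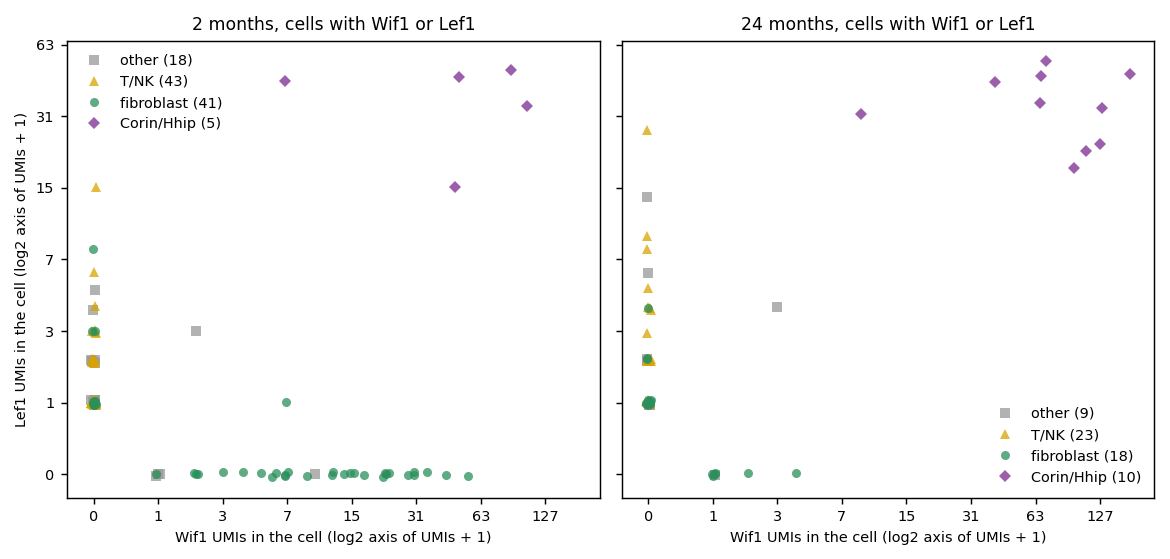
Each point is 1 cell with a UMI of Wif1 or Lef1, with Wif1 UMIs on the x axis and Lef1 UMIs on the y axis, both spaced as log2 of UMIs + 1 with a small jitter, for the young (left) and aged (right) libraries. Numbers in the keys count the cells. Corin/Hhip cells hold both genes, Wif1 fibroblasts lie on the x axis in the young library, and T and NK cells with Lef1 lie on the y axis.

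Corin/Hhip cells were set against gated fibroblasts of the same library for all 10 genes. In the young library 5 of the 10 were higher and 5 lower past 1.5-fold, and 35% of 16102 features were higher and 39.7% lower. In the aged library 5 were higher and 4 lower, against 38.3% and 34% of 16490 features. Corin/Hhip cells held 502979 young and 1005290 aged UMIs, against 68593703 and 74569633 in fibroblasts. A feature near the minimum of 20 UMIs was thus lower with 0 and higher with 1 UMI in them. These shares therefore depend on low counts and are a poor measure of how far the cells differ. Lef1, Wif1, Dkk2, Wnt5a and Axin2 were the higher ones in both libraries, and Wnt2, Sfrp1, Sfrp2 and Sfrp4 were among the lower ones in both. Sfrp2 was at 39.8 and 19.9 CPM in them, against 1135 and 746 in fibroblasts. Axin2 rested on 7 UMIs in each library, and all 7 of the young library lay in 1 cell, the one that passed the macrophage gate.

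T and NK cells were the other Lef1 class. Lef1 is known as a factor of naive and early T cells. The young library had 79 UMIs in 43 of 324 cells, or 29.6 CPM. The aged library had 86 UMIs in 23 of 42 cells, or 207 CPM, a ratio of 7.002 (5.10 to 9.63). After thinning, 5.64% (3.38% to 8.77%) of young and 21.4% (10.3% to 36.8%) of aged cells held a UMI, and no neutrophil did in either library. One aged cell held 27 of the UMIs, and without the 10 richest cells of each library the ratio was 3.85. With 43 young and 23 aged carriers, leaving out 10 cells took unlike parts of them. The makeup of the class differed, with a UMI of the gamma-delta receptor gene Trdc in 221 of the young and 7 of the aged cells. Among cells without Trdc the Lef1 level was 51.0 CPM in 103 young and 239 in 35 aged cells, with 27 of the 78 aged UMIs in 1 cell. The makeup of those cells differed too, with Cd3e at 390 and 181 CPM and Nkg7 at 165 and 344. In this class 24.6% of features were higher and 20.9% lower past 1.5-fold.

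Axin2, the feedback target, was lower in aged fibroblasts, at 3.47 CPM in the young (238 UMIs in 136 cells) and 1.56 in the aged library (116 UMIs in 67 cells), which gave 0.448 as the ratio (0.356 to 0.562). The Coch/Igfbp2 range had the highest level in both libraries, 32.3 and 34.9 CPM, with 14 aged UMIs. In the Acta2/Crabp1 range it was 12.7 and 3.77, a ratio of 0.297 (0.188 to 0.460). Without the 10 richest cells the ratio was 0.0991, a value set largely by the removal. Only 29 young and 13 aged cells there held a UMI. Of the UMIs, 51 young and 9 aged lay in 36 and 3 cells that also passed the Coch/Igfbp2 gate. Cells passing the Acta2/Crabp1 gate and not the Coch/Igfbp2 gate had 4.88 and 2.74 CPM. The part of this overlap in the ratio was not tested. In the Cxcl14/C7/Cilp range Axin2 was at 3.80 and 1.05 (0.278, 0.129 to 0.545, and 0.869 as a mean over cells), and in the Pi16/Dpp4 range 2.05 and 1.56 (0.760, 0.466 to 1.25). The median fibroblast with Axin2 held 1 UMI, and after thinning 0.469% of young and 0.572% of aged fibroblasts held one, which is too few to order. T and NK cells had 13.1 and 7.22 CPM, the aged value from 3 UMIs.

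The interferon-high and cycling states cut across these ranges. In interferon-high fibroblasts 3 of 8 genes were higher and 2 lower past 1.5-fold in the aged library (13.5% and 8.43% of 13114 features), and in cycling fibroblasts 1 of 9 was higher and 4 lower (9.33% and 9.75% of 12579). Fibroblasts with a high level of Ifit1, Ifit3, Rsad2, Irf7 and Isg15 numbered 118 in the young and 368 in the aged library, and the summed level of that list in fibroblasts was 274 and 881 CPM. In those cells Sfrp1 was at 125 and 250, a ratio of 2.00 (1.84 to 2.19), Dkk2 at 8.54 and 30.4, a ratio of 3.56 (2.58 to 5.01), and Dkk3 at 64.8 and 33.1, a ratio of 0.510 (0.444 to 0.588). Wif1 was absent from both, which with 3 UMIs as the limit allows 0.625 and 0.176 CPM. Cycling fibroblasts, marked by Top2a and Mki67, numbered 67 and 126 and had 129 and 1 Wif1 UMIs. In them the ratio was 0.915 for Dkk3 (0.775 to 1.08) and 1.06 for Sfrp1 (0.947 to 1.18), intervals that include no difference. For Dkk2 it was 0.506 (0.402 to 0.636).

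The wider pathway was read from a list of 81 further genes, of which 66 had at least 20 UMIs in fibroblasts. Past 1.5-fold, 3 were higher and 10 lower in the aged library, beside 11.3% and 8.5% of all features. The median log2 ratio was -0.12, against 0.08 over all features. Higher were Rspo2, an R-spondin that strengthens Wnt signals (25 and 113 UMIs, ratio 4.16, 2.68 to 6.69), Trabd2b, a membrane protease that cleaves Wnt ligands (75.1 and 141 CPM, ratio 1.88, 1.82 to 1.95), and the receptor Fzd10 (12 and 23 UMIs, ratio 1.76, 0.842 to 3.89). Lower were the ligands Rspo1, Wnt4 and Wnt6, the inhibitors Frzb, Notum and Sfrp5, and the targets Nkd2, Sp5, Tnfrsf19 and Ccnd1. For Fzd10 the interval includes no difference.

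Among ligands Rspo1 was at 1.85 and 0.738 CPM (0.398, 0.285 to 0.551), Wnt6 at 0.598 and 0.308 (0.516, 0.296 to 0.880), and Wnt16 at 15.6 and 20.5 (1.31, 1.21 to 1.42). Rspo3, the ligand of the list with the most UMIs, was at 23.0 and 19.3 (0.839, 0.781 to 0.902). Wls, which carries Wnt ligands to the surface, was at 194 and 196, and Porcn, which attaches their lipid, at 6.47 and 4.49 (0.694, 0.6005 to 0.802).

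Among inhibitors Notum, an enzyme that removes that lipid, had 38 and 21 UMIs (0.508, 0.283 to 0.888). Sfrp5 had 23 UMIs in the young library and none in the aged. Kremen1, a Dkk receptor, was at 31.8 and 25.4 CPM (0.798, 0.750 to 0.849), and Znrf3, which removes Frizzled receptors, at 20.6 and 19.7 (0.959, 0.891 to 1.03). None of the 13 intracellular genes and none of the 3 further factors passed 1.5-fold. Among receptors with at least 50 UMIs over both libraries, the highest and lowest ratios were those of Fzd4 (9.80 and 14.03 CPM, 1.43, 1.30 to 1.58), Fzd6 (2.96 and 3.65, 1.23, 1.02 to 1.49), Ror1 (40.3 and 27.9, 0.692, 0.653 to 0.732) and Lrp5 (9.39 and 7.43, 0.791, 0.705 to 0.888). Ryk had the most UMIs of the receptors, at 123 and 135 CPM. Beta-catenin itself, Ctnnb1, was at 74.1 and 88.3 (1.19, 1.15 to 1.24), and the kinase Gsk3b at 118 and 134 (1.14, 1.10 to 1.17). Bcl9 and Bcl9l, partners of beta-catenin, were at 0.770 and 0.797 times the young level, and Csnk1a1, the intracellular gene with the most UMIs, at 0.919 times. Of the factors Tcf7l2 was at 54.9 and 49.5 CPM, Tcf7 at 1.47 and 1.22, and Tcf7l1 at 27.9 and 23.0.

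Of the 9 listed targets 4 were lower past 1.5-fold and none was higher, beside 8.5% and 11.3% of all features. Tnfrsf19 was at 1.66 and 0.577 CPM (0.347, 0.238 to 0.497), Sp5 had 48 and 19 UMIs (0.364, 0.202 to 0.631), Nkd2, a feedback inhibitor, was at 5.50 and 2.68 (0.488, 0.409 to 0.581), and Ccnd1, which encodes cyclin D1, was at 22.6 and 13.05 (0.578, 0.533 to 0.626). Ccn4 was at 98.9 and 102 and Cd44 at 1698 and 1703, within 1.5-fold. Several of these targets, Cd44 and Ccnd1 among them, also respond to other signals. The 4 lower targets did not differ alike in the subset ranges. Among the 4 ranges of the young library each was highest in the Coch/Igfbp2 range, which had 72 young and 8 aged cells. Ccnd1 was at 73.4 and 18.9 CPM in the Acta2/Crabp1 range, but at 37.8 and 36.6 in the Cxcl14/C7/Cilp range. Tnfrsf19 was at 0.187 and 0.599 in the Pi16/Dpp4 range, whereas Nkd2 was lower in all 4 ranges. The part of fibroblast makeup in these ratios was not tested.

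**Figure D5:**
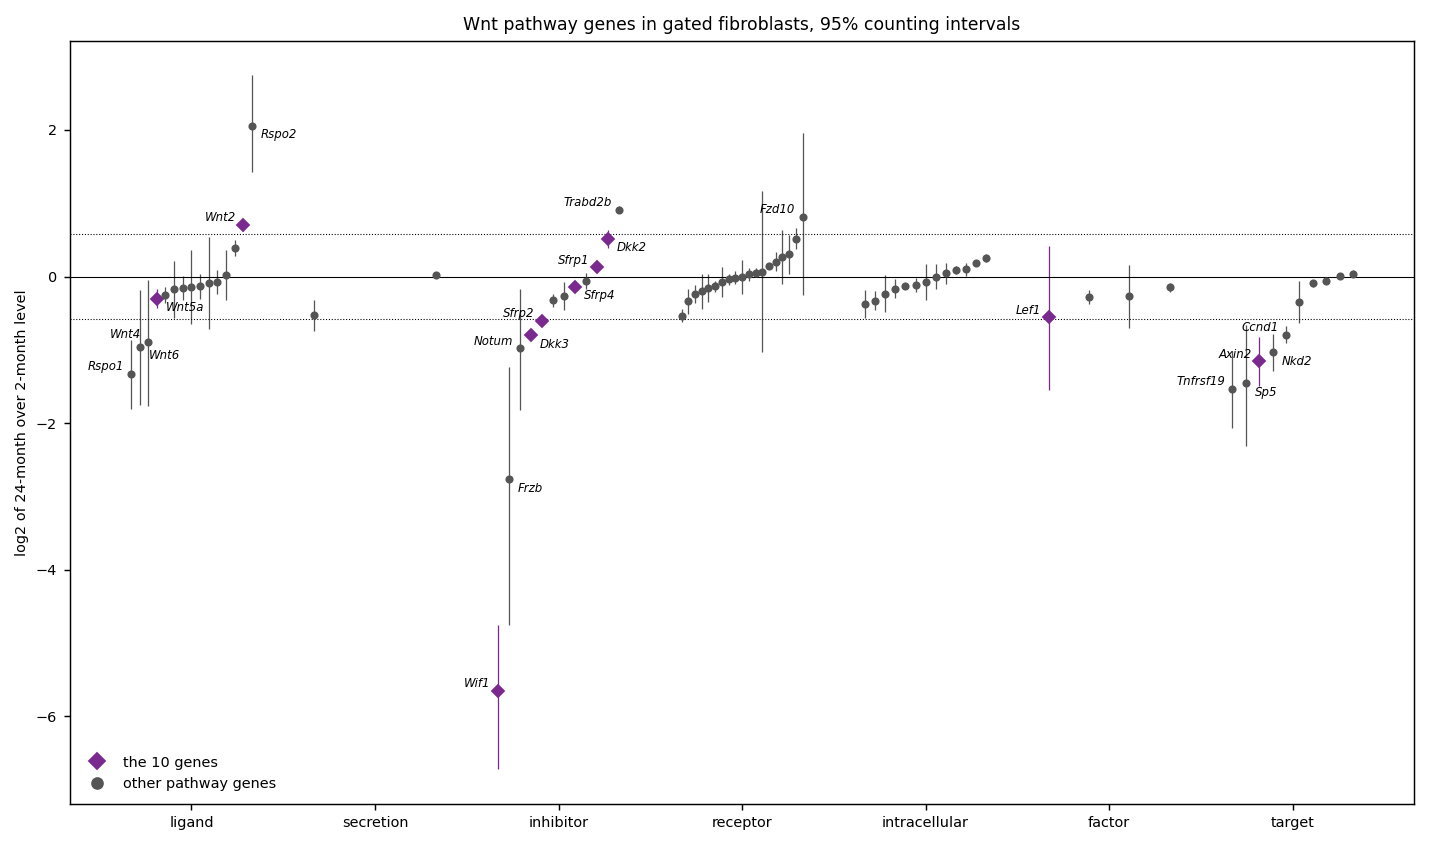
Log2 ratio of the aged (24-month) to the young (2-month) level in gated fibroblasts for the 10 genes (purple diamonds) and for the further pathway genes with at least 20 UMIs (grey points), by role, with 95% counting intervals as bars and dotted lines at 1.5-fold. Sfrp5, with 23 UMIs in the young and 0 in the aged library, cannot be drawn on this axis. Axin2 lies with 4 lower targets, and none of the intracellular genes passes 1.5-fold.

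The Corin/Hhip cells held other pathway genes as well. Against fibroblasts 36 of 65 listed genes were higher and 18 lower in the young library, and 43 of 63 higher and 12 lower in the aged library. Over all features 35% were higher and 39.7% lower in the young library, and 38.3% and 34% in the aged. Sostdc1, a secreted antagonist, had 27 and 48 UMIs in them and none in gated fibroblasts of either library. Nkd2 had 232 and 316 UMIs (461 and 314 CPM), Rspo3 98 and 502, Rspo1 108 and 290, and Apcdd1, a surface inhibitor, 71 and 108. The rule used Rspo4 to choose these cells, so its level there is not a result, though the counts of higher genes in both libraries include it. Like the shares of features, these counts depend in part on genes with few UMIs in the Corin/Hhip cells.

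The genes whose pattern was most like each member were sought among 13886 features over 8 classes and subsets in each library, 16 points that share libraries and partly share cells. They were the Acta2/Crabp1, Cxcl14/C7/Cilp and Pi16/Dpp4 ranges, fibroblasts without a subset gate, macrophages and monocytes, neutrophils, T and NK cells, and endothelial cells. The Coch/Igfbp2 range and the Corin/Hhip cells had too few cells to be among them. The measure was Pearson's r of log2(level + 1), given as a description with no test. Genes found in fibroblasts and hardly in the other classes are alike by this measure. Wnt2 was most like Adgrg2, Ptgis and Wnt16 (r from 0.992 to 0.995). Col1a2 and Lgi2 were among the 3 most like Sfrp2 (0.99). Wif1 was most like Coch, Zfp536 and Wfdc12 (0.93 to 0.94), and Pakap and Pappa were among the 3 most like Wnt5a (0.98 and 0.97). Sfrp1 was nearest to Ndn, Pdzrn3 and Fbn1, Sfrp4 to Gabra3, Scn7a and Chrdl1, Dkk2 to Msx1, Tcaf2 and Hoxd8, and Dkk3 to Rpl39l, Gpm6b and Pde11a. Lef1, carried by T and NK cells among these points, was nearest to Myb, Xcl1 and Nkg7. Axin2 had the lowest best value, 0.92 with Fam174b, followed by Myo16 and Gm42047.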

How the data were processed

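Single-cell 3' RNA libraries of 1 young and 1 aged pool of mouse wounds were read from the deposited matrices, whose values are UMI counts per gene and cell made by the authors with Cell Ranger. The submitters' processing notes give Cell Ranger 9.0 and STAR, Seurat 4 and the build GRCm38/mm10, whereas the file headers name Cell Ranger 8.0.1. The library totals were 111810068 and 107865898 UMIs. The 10 genes and all lists were chosen with earlier results of these data known.

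Cells were kept with at least 500 UMIs, at least 200 genes and under 15% mitochondrial UMIs. Each cell was given the mean natural log of (UMIs per 10000 + 1) over each marker list, and passed a gate at a set threshold. Cells passing several class gates were left out, and no doublet caller was run. UMIs were summed per class. Levels have exact Poisson intervals, ratios exact conditional binomial intervals and shares exact Clopper-Pearson intervals. These are 95% intervals for the error of counting alone. A difference counted as called past 1.5-fold with at least 20 UMIs over both groups. With 1 library per age, age and library cannot be told apart. Shares of cells were also taken after thinning each cell to 2000 UMIs, leaving out shallower cells (35 young and 29 aged fibroblasts). A level of 0 was set against a floor of 3 UMIs. Levels of different genes are UMIs not scaled by length.

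All 10 genes were named in each class. Of the other pathway genes, the 2 highest and 2 lowest ratios of each role with at least 50 UMIs and the most abundant of each role were named, and those past 1.5-fold outside this rule were named after their values were seen. Likeness was taken over classes with at least 30 cells in each library, for genes with at least 200 UMIs, and 2 of the genes it found are not reported here. The ratio and scaling steps were tested on simulated data. Alternatives were other gate thresholds, cell filters, count minimums, Leiden clusters in place of gates, TMM scaling, per-cell means, equal subset weights, leaving out the 10 richest cells, and other rules for Corin/Hhip cells, the last chosen after seeing the data. Python 3.11.15 was used with numpy 2.4.6, scipy 1.17.1, pandas 2.3.3, scanpy 1.11.5, igraph 0.11.9 and matplotlib 3.10.9.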

Additional observations from a re-analysis of the deposited data

Results flagged for a closer look

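For 5 of the genes the ratio of aged over young lay past 1.5-fold in opposite directions in Corin/Hhip cells or the fibroblast subset ranges. None of these differences was tested, since there was 1 library per age. Wnt5a was at 4.24 times the young level in Corin/Hhip cells and at 0.398 times in the Acta2/Crabp1 range. Wif1 was at 1.54 times in Corin/Hhip cells and at 0.00287 times in the Acta2/Crabp1 range. Sfrp2 was at 4.56 times in the Coch/Igfbp2 range, which had 8 aged cells, and at 0.5003 times in Corin/Hhip cells, from 20 UMIs in each library. Dkk2 was at 2.00 times in the Pi16/Dpp4 range and at 0.0429 times in the Coch/Igfbp2 range. Dkk3 was at 1.85 times in Corin/Hhip cells and at 0.418 times in the Coch/Igfbp2 range. Barcodes left out by the filter on cells held 24 Sfrp2 UMIs in the young and 8 in the aged library, above the limit that a count of 0 allows.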

How the results depend on the processing

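Over 12 alternatives the ratio of aged over young in fibroblasts ranged from 0.541 to 0.579 for Dkk3, from 0.404 to 0.603 for Axin2 and from 1.53 to 2.44 for Wnt2. Over 10 alternatives that of Wif1 ranged from 0.016 to 0.523, and it had no value without the 10 richest cells or with equal subset weights. Sfrp2 turned to 1.19 with equal weight to each subset. In the Coch/Igfbp2 range a threshold 25% higher turned Sfrp1 to 0.103 and Sfrp2 to 0.0515. Axin2 in the aged Cxcl14/C7/Cilp range over other fibroblasts turned to 1.65 as a mean over cells, and the ratio of Wnt2 shares to 0.978 with at least 2 UMIs. The number of the 10 genes higher in aged fibroblasts was 2 with Corin/Hhip cells left in their class and 2 with equal subset weights, and the number lower was 3 to 5. The share of young Wif1 UMIs in Corin/Hhip cells was 45.6% when 3 of the 5 genes were enough. Other pathway genes higher numbered 7 with at least 1 UMI, and those lower 4 with at least 100 UMIs, where fewer genes were counted. Otherwise the cause was not tested. No paired analysis was possible because each age had 1 library and the labels give no replicate numbers. Values from classes of 8, 5 or 10 cells rest on few cells, whatever their depth.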
